A study of Mus musculus with 8 samples.

Results

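The core circadian clock genes were followed in liver RNA of mice without the liver X receptors. The 10 genes Arntl, Clock, Npas2, Per1, Per2, Cry1, Nr1d1, Nr1d2, Dbp and Tef were chosen by name for their place in the clock loop, and all 10 were found among the 25010 genes of the deposited table. Of these 10, 9 were among the 15578 genes whose mean reached 10 normalized counts and over which all tests ran, and Npas2 was not. A normalized count is the number of reads on a gene divided by a size factor of its library, and fold changes compare log2(normalized count + 1) between LXRDKO and WT. The study compared wild-type (WT) mice with mice that lack LXRα and LXRβ in the whole body (LXRDKO) by RNA-Seq of the left lobe of the liver. Both groups had the C57BL/6 background, were killed at 8 wk after a fast of 4 to 6 h, and each group had 2 mice with a library each. The mice lived under alternating light and dark, but the time of day at which they were killed is not given in the sources used here. It can therefore not be told from them whether the 4 livers were taken at the same phase of the clock. LXRα and LXRβ are nuclear receptors that bind oxysterols and switch on genes of cholesterol efflux and fatty acid synthesis.

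The clock of a liver cell is a feedback loop of transcription with a period of about a day. BMAL1 (gene Arntl) pairs with CLOCK or NPAS2, binds DNA elements named E-boxes and switches on the Per, Cry and Nr1d genes and the output factors Dbp, Tef and Hlf. PER and CRY proteins then block this pair, while the heme-binding receptors REV-ERBα (Nr1d1) and REV-ERBβ (Nr1d2) act at other elements, named RREs, and repress Arntl. In mouse liver the RNAs of the E-box genes peak by day or early in the night and that of Arntl around the end of the night, so both arms are normally out of phase.

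The elements of this loop could be read in the start regions of the genes themselves. RefSeq start windows, which run from 250 bases before to 50 bases after a transcription start on GRCm38.p6, were found for 9 of the 10 genes. The window of Per2 was not among them. The E-box was searched as CACGTG, which reads the same on both strands, and was present in 7.15% of 32817 mouse windows. The core of the RRE was searched as TAGGTCA on both strands and was present in 2.61% of windows. Among the 10 genes, an E-box was found in windows of Per1, Cry1 and Tef, and an RRE core in a window of Arntl. The stretches below show these elements in capitals, 5′ to 3′ on the strand of the gene, because the arms of the loop are known to be driven through such elements.
Per1, chr11:69098771-69098800, + strand, E-box: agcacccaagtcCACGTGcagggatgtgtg
Cry1, chr10:85185097-85185126, − strand, E-box: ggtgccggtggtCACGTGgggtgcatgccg
Tef, chr15:81811264-81811293, + strand, E-box: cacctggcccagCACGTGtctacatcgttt
Arntl, chr7:113207529-113207558, + strand, RRE core: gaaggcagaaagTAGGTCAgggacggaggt

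Counted from the start, the E-box began at base −60 in Cry1, −166 in Per1 and −138 in Tef, and none of these stretches lay in an exon of GENCODE M21. Another E-box of Tef, at base −127 of its first start, lay in annotated exon sequence and is not shown. The windows printed for Per1 and Tef belong to starts inside the longer gene models of that annotation. The RRE core of Arntl began at base 31 after the second of its 2 annotated starts, inside annotated exon sequence. The windows of Nr1d1, Nr1d2, Dbp, Clock and Npas2 held neither sequence. The cAMP response element TGACGTCA, a known input to Per1, was in 1.79% of all windows and in none of those of the 10 genes. A match or its absence is a description of letters in a window and says nothing about binding, and E-boxes of Dbp are known from its introns.

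The window of Arntl also carried a run of CCAAT boxes, a common promoter element bound by the factor NF-Y. This motif was chosen after the sequence had been seen. It was searched as CCAAT and as ATTGG, its form on the other strand, and 37.4% of all windows held at least 1. The first window of Arntl held 8, and it was the only 1 of 32817 windows with so many. Only 4 windows had 7 or more, and 2 of these 4 are the overlapping windows of Arntl. The 250 bases before the first start are shown with 7 of these boxes in capitals, all of them in the ATTGG orientation.
Arntl, chr7:113207215-113207464, + strand: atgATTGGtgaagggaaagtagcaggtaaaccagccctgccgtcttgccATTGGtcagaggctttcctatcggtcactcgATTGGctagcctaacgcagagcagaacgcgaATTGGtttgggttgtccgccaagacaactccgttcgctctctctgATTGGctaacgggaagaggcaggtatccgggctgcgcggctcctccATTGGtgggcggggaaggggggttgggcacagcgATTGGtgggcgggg

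A pair of AGGTCA sites with 4 bases between them, the arrangement that LXR and its partner RXR prefer, was found on either strand in 5 of the 32817 windows, and none of these belonged to the 10 genes. Only exact copies of this pair were searched, 0.0152% of windows held it, and Per2 had no window. The study states that many critical LXR sites depart from a perfect pair. The absence of the pair here therefore cannot show whether these genes have LXR sites. Sequence farther from the starts was not searched.

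Between 55772659 and 72842744 reads were counted on genes per liver, and between 21716 and 22721 genes had a read. The deleted receptors checked the labels. Nr1h3, which encodes LXRα, had a mean of 5554 ± 328 normalized counts (SD, n = 2) in WT and of 1769 ± 80.1 in LXRDKO, and Nr1h2, which encodes LXRβ, had 3049 ± 86.8 and 964 ± 55.1. On the log2 scale Nr1h3 fell by 1.65 and Nr1h2 fell by 1.66 in LXRDKO (adjusted P = 0.0147 for each, limma). Their fold changes ranged from −1.72 to −1.59 over all alternatives, but neither passed without LXRDKO replicate 1 (adjusted P = 0.0954 and 0.0952), without LXRDKO replicate 2 (0.0657 and 0.0627) or in limma without the trend (0.212 for both). The number of livers sets a limit for single genes: an exact permutation test of 2 livers against 2 cannot give a two-sided P value under 0.333, so the P values below rest on the spread that limma pools over genes. Nothing in the labels says more of the mice than that they are numbered separately.

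No clock gene passed the adjusted threshold of 0.05 in limma, where 0.321% of all genes tested did, nor in DESeq2 on the recovered reads, where 3.59% did. At an unadjusted P value under 0.05, limma gave 4 of 9, namely Arntl, Nr1d1, Nr1d2 and Dbp, beside 13.3% of all genes tested. DESeq2 also gave 4 at that level and edgeR 3. All LXRDKO values exceeded all WT values for 3 of the 9 (Arntl, Per1 and Cry1), beside 21.7% of all genes. All were below for 4 of the 9 (Nr1d1, Nr1d2, Dbp and Tef), beside 23% of all genes. Clock and Per2 overlapped between the groups. The median log2 fold change of the 9 genes was −0.06 and that of all genes tested −0.0046, so the clock genes did not shift together in 1 direction.

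**Figure D1:**
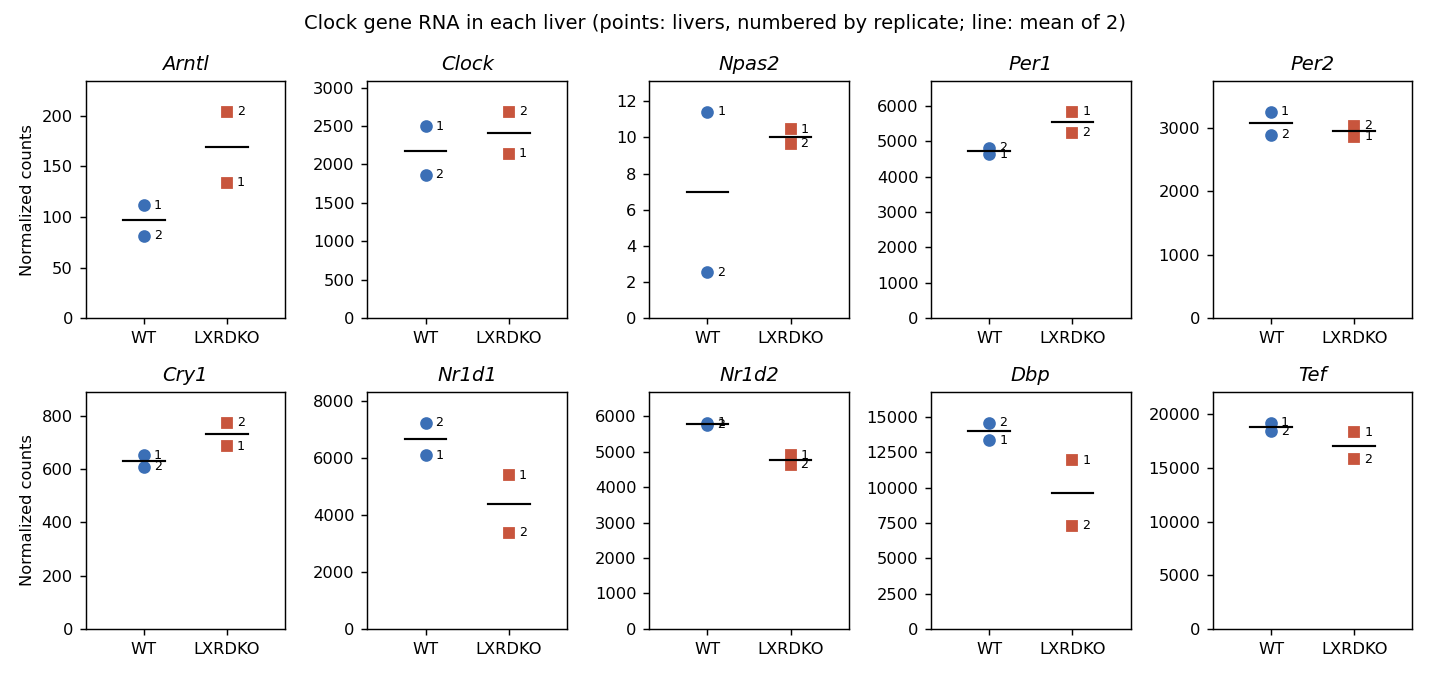
Normalized counts (vertical axis, from 0, with its own scale in each panel) of the 10 clock genes in 2 WT livers (circles) and 2 LXRDKO livers (squares), numbered by replicate, with a line at each mean. Arntl, Per1 and Cry1 lay higher in both LXRDKO livers, Nr1d1, Nr1d2, Dbp and Tef lay lower in both, and the points of LXRDKO replicate 2 sat farthest from WT for Arntl, Nr1d1 and Dbp.

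Arntl, the gene of BMAL1 and the activator without which the clock stops, lies on chr7:113207465-113314126 of GRCm38. It had 112 and 81.5 normalized counts (WT) against 134 and 204 (LXRDKO). Every LXRDKO value was above every WT value, but the LXRDKO livers differed from each other more than LXRDKO replicate 1 differed from WT replicate 1. The log2 fold change was 0.78 (95% interval 0.04 to 1.53, standard error 0.30, unadjusted P = 0.0425, adjusted P = 0.357, limma). Leaving out LXRDKO replicate 2 gave 0.48, and leaving out LXRDKO replicate 1 gave 1.09, so LXRDKO replicate 2 moved it by more than 1.5 times. Arntl was also the gene of the 9 with the fewest reads, 98 and 96 in WT and 141 and 190 in LXRDKO.

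Clock, on chr5:76209868-76304792, encodes the partner of BMAL1, whose RNA is known to swing less over the day than that of Arntl. It had 2493 and 1863 normalized counts (WT) against 2140 and 2682 (LXRDKO). The 2 groups overlapped, with the highest and the second lowest value both in LXRDKO. The log2 fold change was 0.15 (95% interval −0.30 to 0.60, adjusted P = 0.786, limma), and its sign turned without WT replicate 2 (−0.06) and without LXRDKO replicate 2 (−0.01). Npas2, on chr1:39193731-39363236, encodes a stand-in for CLOCK that is best known from forebrain. It had 11.4 and 2.5 normalized counts (WT) against 10.4 and 9.6 (LXRDKO), from 10, 3, 11 and 9 reads. With so few reads its groups overlapped and a difference was not detectable at this depth.

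Per1, on chr11:69095217-69109960, encodes a PERIOD repressor whose RNA is also known to answer quickly to glucocorticoids. It stood at 4630 and 4820 normalized counts (WT) against 5824 and 5244 (LXRDKO). The groups did not overlap, and here LXRDKO replicate 1 was the highest. The log2 fold change was 0.23 (95% interval −0.01 to 0.46, standard error 0.09, adjusted P = 0.394, limma). Beside it, 10 of 11 genes of a list of glucocorticoid-induced genes that includes Per1 were higher in LXRDKO (median log2 fold change 0.58). Of all 15578 genes tested, 7649 were higher. The groups overlapped for 4 of the 11, beside 8613 of all genes. At the adjusted threshold 1 of these 11 passed in limma and 3 in DESeq2, beside 0.321% and 3.59% of all genes. The 1 in limma was Fkbp5, a chaperone of the glucocorticoid receptor, with 6870 and 6116 normalized counts (WT) against 19131 and 16133 (LXRDKO) (log2 fold change 1.44, adjusted P = 0.0257). It did not pass without either LXRDKO liver (adjusted P = 0.146 without replicate 1 and 0.0742 without replicate 2) or in limma without the trend (0.219). The others in DESeq2, named after their values were seen, were Zbtb16 and Cebpd. Zbtb16, a zinc finger transcription factor, had the largest fold change of the list, with 443 and 315 normalized counts (WT) against 2014 and 4353 (LXRDKO) (log2 fold change 2.98, adjusted P = 0.0615 in limma and 1.63e-05 in DESeq2). Cebpd had a log2 fold change of 0.78 (adjusted P = 0.218 in limma and 0.0269 in DESeq2). Whether this list has a part in the Per1 values was not tested.

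Per2, the other PERIOD gene of the set, lies on chr1:91415982-91459324 and had 3253 and 2894 normalized counts (WT) against 2865 and 3039 (LXRDKO). The highest value was in WT and the lowest in LXRDKO, but the groups overlapped, with a log2 fold change of −0.06 (95% interval −0.31 to 0.19, adjusted P = 0.873, limma). The sign turned without WT replicate 1 (0.03). Cry1, on chr10:85131700-85185064, encodes a CRYPTOCHROME repressor and is known to answer to both E-boxes and RREs. It had 651 and 609 normalized counts (WT) against 685 and 774 (LXRDKO), with no overlap and the highest value in LXRDKO replicate 2. The log2 fold change of Cry1 was 0.21 (95% interval −0.11 to 0.53, standard error 0.13, adjusted P = 0.564, limma), and 0.12 without LXRDKO replicate 2.

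Nr1d1 encodes REV-ERBα, the repressor of Arntl, and lies on chr11:98767932-98775333. It had 6092 and 7233 normalized counts (WT) against 5385 and 3377 (LXRDKO). Both LXRDKO livers were lower than both WT livers, and LXRDKO replicate 2 was far lower than its group mate. On the log2 scale the fold change was −0.64 (95% interval −1.21 to −0.07, standard error 0.23, unadjusted P = 0.0335, adjusted P = 0.329, limma, and adjusted P = 0.148 in DESeq2). Leaving out LXRDKO replicate 2 gave −0.30, and leaving out LXRDKO replicate 1 gave −0.97. Nr1d1 shares 263 exonic bases, 8.55% of its exonic length, with the thyroid hormone receptor gene Thra on the opposite strand, and the sources used here do not state whether reads were counted by strand. Thra itself had between 799 and 818 normalized counts in the 4 livers. Whether reads of the shared bases have a part in the Nr1d1 values was not tested.

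Nr1d2, the gene of REV-ERBβ on chr14:18204054-18239127, was the most even of the 9 tested clock genes within each group. It had 5815 and 5757 normalized counts (WT) against 4900 and 4629 (LXRDKO). The gap between the groups was wider than the spread inside either. Its log2 fold change was −0.28 (95% interval −0.49 to −0.07, standard error 0.09, unadjusted P = 0.0184, adjusted P = 0.276, limma), with −0.32 to −0.24 as the range over the omissions of single livers. Of the 4 clock genes with an unadjusted P value under 0.05, Nr1d2 had the smallest change and the smallest P value.

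Dbp, a PAR bZIP transcription factor that carries the clock signal to output genes, lies on chr7:45705088-45710203. It had 13348 and 14593 normalized counts (WT) against 11917 and 7296 (LXRDKO). Both LXRDKO livers were lower, and as for Nr1d1 the lowest value by far was in LXRDKO replicate 2. On the log2 scale the fold change was −0.58 (95% interval −1.15 to −0.01, standard error 0.23, unadjusted P = 0.0472, adjusted P = 0.369, limma), −0.23 without LXRDKO replicate 2 and −0.94 without LXRDKO replicate 1. Dbp shares 539 exonic bases, 18% of its exonic length, with Sphk2 on the opposite strand. The values of Sphk2 were 3487 and 2882 in WT and 2564 and 3445 in LXRDKO. Because the counting of strand is not stated, reads of these overlapping ends may be assigned to either gene, and their part in the Dbp values was not tested.

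Tef, a related PAR bZIP factor on chr15:81802421-81826863, had 19235 and 18456 normalized counts (WT) against 18339 and 15827 (LXRDKO). The groups did not overlap, but LXRDKO replicate 1 lay just under the lower WT liver. On the log2 scale the fold change was −0.15 (95% interval −0.42 to 0.13, standard error 0.11, adjusted P = 0.652, limma) and −0.04 without LXRDKO replicate 2, or −0.25 without LXRDKO replicate 1. Hlf, the third factor of this family and not among the 10 genes, had 6914 and 5167 in WT and 5152 and 5411 in LXRDKO, so it overlapped between the groups (log2 fold change −0.18, adjusted P = 0.684), and its sign turned without WT replicate 1 (0.03).

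**Figure D2:**
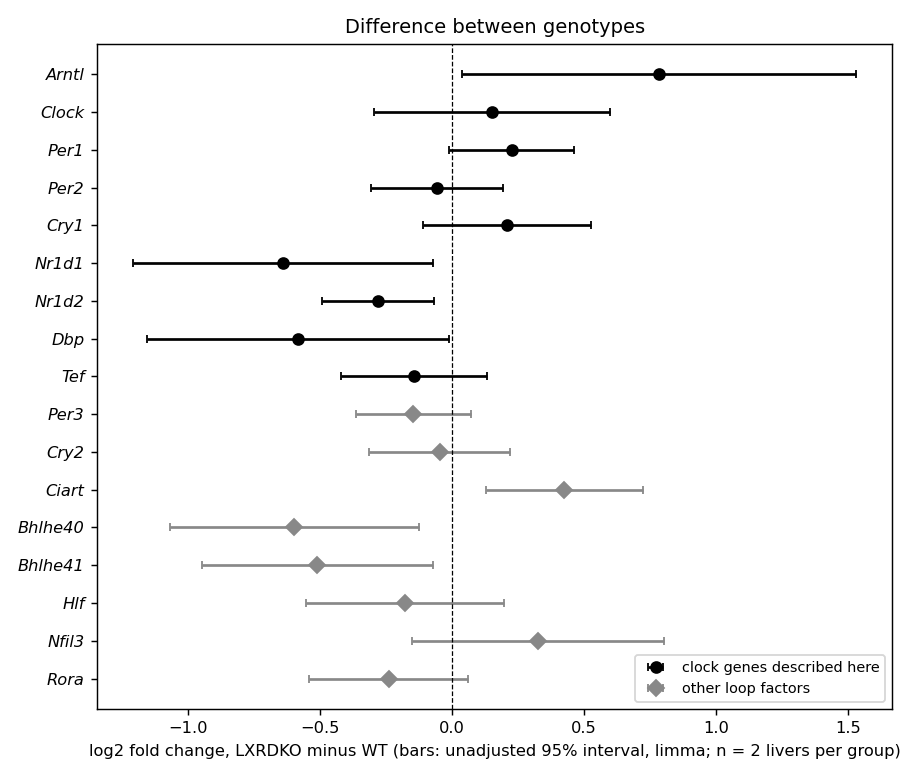
Log2 fold changes of LXRDKO over WT (horizontal axis) with unadjusted 95% intervals from limma for 9 clock genes (black circles) and 8 other factors of the loop (grey diamonds), n = 2 livers per group. The intervals of Arntl (0.04 to 1.53), Nr1d1 (−1.21 to −0.07), Nr1d2 (−0.49 to −0.07), Dbp (−1.15 to −0.01), Ciart, Bhlhe40 and Bhlhe41 leave out 0 before adjustment, and none of the genes passed after it.

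Levels of different genes were compared per kilobase of exon, with each base that lies in any annotated exon of the gene counted once. In WT liver the order of the mean levels, in normalized counts per kb, was Dbp (4668), Tef (2396), Nr1d1 (2165), Nr1d2 (1070), Per1 (839), Per2 (525), Cry1 (189), Clock (159), Arntl (12.8) and Npas2 (1.46). Output factors and REV-ERBs thus stood at the top and the activators at the bottom. The WT livers of neighbours in this order overlapped only for Tef and Nr1d1. In LXRDKO the order changed at 1 place, where Per1 (983) came before Nr1d2 (881). The mean level of Clock was 12.4 times that of Arntl in WT. This order and this ratio belong to a time of day that is not given, and RNAs that cycle could rank otherwise at another time.

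Ratios within a liver do not depend on the size factor of its library. They are not per length, so only their differences between livers are read. The log2 ratio of Nr1d1 to Arntl, a repressor over the gene it represses, was 5.76 and 6.45 in WT and 5.32 and 4.04 in LXRDKO. The log2 ratio of Dbp to Arntl was 6.89 and 7.47 in WT and 6.47 and 5.16 in LXRDKO. Both ratios were lower in each LXRDKO liver, with mean differences of −1.42 and −1.37, and lowest in LXRDKO replicate 2. These ratios restate the values of Nr1d1, Dbp and Arntl on a common scale and were not tested.

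Ratios between genes known to share E-box control were read in the same way. The log2 ratio of Dbp to Per1 was 1.53 and 1.60 in WT and 1.03 and 0.48 in LXRDKO. That of Nr1d1 to Per1 was 0.40 and 0.59 in WT and −0.11 and −0.63 in LXRDKO. The groups of both ratios did not overlap. The ratio of Nr1d1 to Nr1d2 was 0.07 and 0.33 in WT and 0.14 and −0.45 in LXRDKO and overlapped between the groups. The ratio of Per1 to Per2 was 0.51 and 0.74 in WT and 1.02 and 0.79 in LXRDKO.

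**Figure D3:**
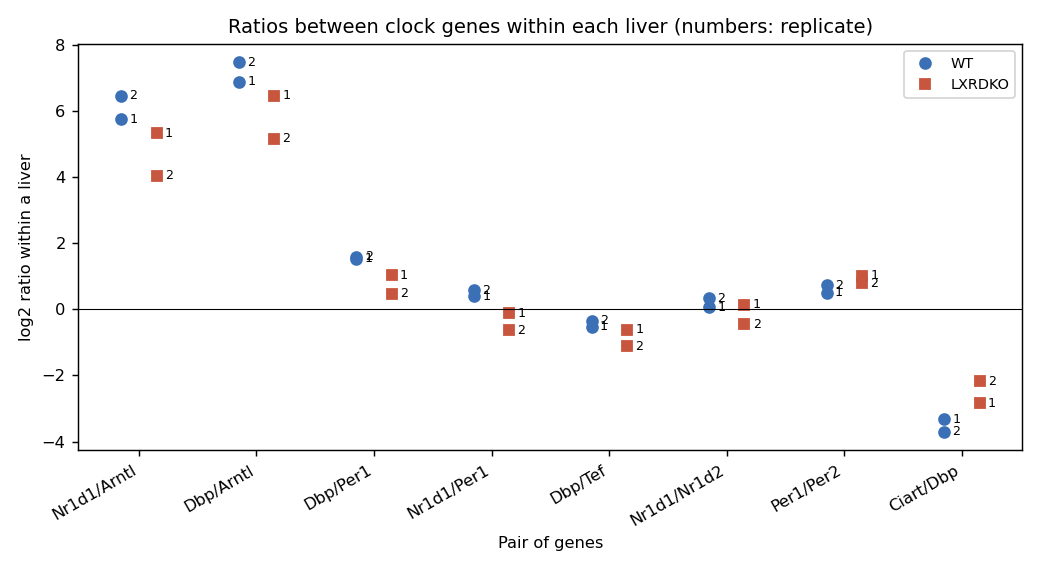
Log2 ratios of pairs of clock genes within each liver (vertical axis, ratio of normalized counts plus 1) in 2 WT (circles) and 2 LXRDKO livers (squares), numbered by replicate. The ratios of Nr1d1 and Dbp to Arntl and to Per1 were lower in both LXRDKO livers, and the ratio of Nr1d1 to Nr1d2 overlapped between the groups.

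The 2 LXRDKO livers differed from each other in several clock genes. LXRDKO replicate 2 was the lowest of the 4 livers for 4 of the 9 clock genes, beside 25.7% of all genes tested, and the highest for 3 of the 9, beside 25.5%. Over a list of 12 genes known to answer to E-boxes, it was the lowest for 7 and the highest for none. This list was not complete, and Wee1, an E-box gene given below, was not on it. Over the list of 19 cycling liver genes given below, LXRDKO replicate 2 was the lowest for 3 and the highest for 9. Of the genes known to answer to RREs, 4 were tested and are reported here, and it was the highest for these 4, namely Arntl, Clock, Cry1 and Nfil3. For Npas2, an RRE gene left untested for low counts, it was not the highest. Npas2 had 9.6 normalized counts there, against 11.4 in WT replicate 1 and 10.4 in LXRDKO replicate 1. The RRE list was not complete, so no share is read from it. Cry1, known to answer to both elements, was counted only with the RRE genes and not among the 12. All of these lists were chosen with earlier results of these data known, so these counts depend on that choice. The median absolute log2 difference between livers of a group was 0.13 in WT and 0.21 in LXRDKO for the 9 clock genes, and 0.18 and 0.17 for all genes tested. For Nr1d1, Dbp, Arntl, Tef and Cry1 the fold changes were more than 1.5 times smaller without LXRDKO replicate 2, as given above. An effect of genotype and a difference in phase between single livers cannot be told apart with 2 livers in each group and no time of day.

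**Figure D4:**
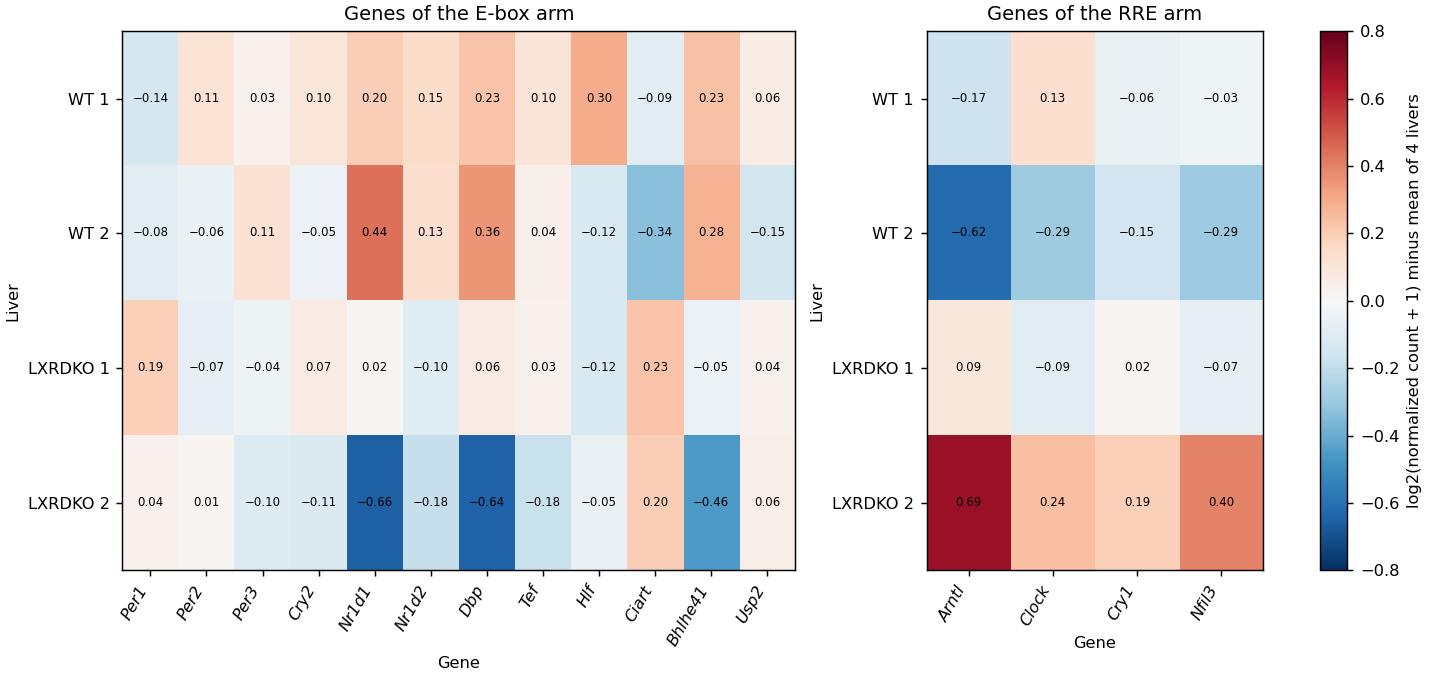
Deviation of each liver from the mean of the 4 livers in log2(normalized count + 1), in colour and printed, for 12 genes of the E-box arm and 4 tested genes of the RRE arm, in 2 WT and 2 LXRDKO livers. LXRDKO replicate 2 (bottom) lay at −0.66 for Nr1d1, −0.64 for Dbp and −0.46 for Bhlhe41 and at 0.69 for Arntl and 0.40 for Nfil3, while Per1, Ciart and Usp2 of the E-box arm lay above 0 in both LXRDKO livers.

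Among the other factors of the loop, a list of 11 of which 10 were tested, no gene passed in limma or DESeq2. The unadjusted P value of limma was under 0.05 for 1 higher and 2 lower genes, beside 13.3% of all genes tested. All LXRDKO values were above all WT values for 1 of the 10, beside 21.7% of all genes, and below them for 5, beside 23%, and the log2 fold changes had a median of −0.16. Ciart, a repressor also known as CHRONO, had 1331 and 1120 normalized counts (WT) against 1659 and 1623 (LXRDKO) (log2 fold change 0.43, 95% interval 0.13 to 0.72, adjusted P = 0.244, limma). It was higher in both LXRDKO livers, although Ciart is an E-box gene like Dbp, which was lower in both. Its window held 3 E-boxes, and 29 (0.0884%) of all windows held 3 or more, and those of Ciart are shown here because the 2 genes went opposite ways.
Ciart, chr3:95882255-95882356, − strand, E-boxes: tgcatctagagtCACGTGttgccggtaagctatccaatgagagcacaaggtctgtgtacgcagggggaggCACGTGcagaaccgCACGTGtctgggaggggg

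Bhlhe40 and Bhlhe41, which encode the DEC repressors that compete for E-boxes, were both lower in LXRDKO before adjustment. Bhlhe40 had 9296 and 10255 normalized counts (WT) against 5327 and 7829 (LXRDKO) (log2 fold change −0.60, 95% interval −1.07 to −0.13, adjusted P = 0.293 in limma and 0.100 in DESeq2). Bhlhe41 had 587 and 605 in WT and 483 and 362 in LXRDKO (log2 fold change −0.51, 95% interval −0.95 to −0.07, adjusted P = 0.316, limma). The groups of both genes did not overlap, but the lowest liver was LXRDKO replicate 1 for Bhlhe40 and LXRDKO replicate 2 for Bhlhe41. Bhlhe40 was −0.32 without LXRDKO replicate 1, and Bhlhe41 was −0.30 without LXRDKO replicate 2. Bhlhe41 shares 19% of its exonic length with the unclassified gene Gm43909 on the opposite strand, which had under 7 normalized counts in every liver.

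Nfil3 encodes the repressor that opposes Dbp, Tef and Hlf at D-boxes and is itself held down by the REV-ERBs. It had 835 and 697 normalized counts (WT) against 812 and 1127 (LXRDKO). The groups overlapped, with only LXRDKO replicate 2 above both WT livers, which is also the liver with the highest Arntl. On the log2 scale the fold change was 0.33 (adjusted P = 0.550 in limma, standard error 0.19) and 0.09 without LXRDKO replicate 2, or 0.56 without LXRDKO replicate 1. The window of Nfil3 also held an RRE core, read here on the strand of the gene as the complement TGACCTA.
Nfil3, chr13:52981034-52981063, − strand, RRE core: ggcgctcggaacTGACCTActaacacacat

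Rora, which encodes a receptor that activates at RREs, had a log2 fold change of −0.24 (adjusted P = 0.475, limma), and −0.11 without LXRDKO replicate 1 or −0.37 without LXRDKO replicate 2. Per3 had 4742 and 5009 normalized counts (WT) against 4501 and 4307 (LXRDKO), lower in both livers by a small margin (log2 fold change −0.15, adjusted P = 0.554). Per3 is shown because its window held 2 copies of the D-box TTATGTAA, the element of Dbp, Tef, Hlf and Nfil3. The D-box, searched as TTATGTAA or TTACGTAA on both strands, was present in 1.05% of windows and in none of the windows of the 10 genes.
Per3, chr4:151044804-151044882, − strand, D-boxes: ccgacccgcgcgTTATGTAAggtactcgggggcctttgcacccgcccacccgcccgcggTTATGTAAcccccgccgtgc

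Cry2 had a log2 fold change of −0.05 (95% interval −0.31 to 0.22, adjusted P = 0.905, limma), with a sign that turned without WT replicate 1 (0.03), without LXRDKO replicate 2 (0.04) and under scaling to the library total (0.0076). Of 11 genes for enzymes that modify clock proteins, none passed in limma or DESeq2, and 1 had an unadjusted P value under 0.05 in limma, beside 13.3% of all genes tested. This was Prkaa2, a catalytic subunit of the energy sensor AMPK, which marks CRY proteins for breakdown. It had 6920 and 6475 normalized counts (WT) against 5196 and 5917 (LXRDKO) (log2 fold change −0.27, 95% interval −0.53 to −0.02, adjusted P = 0.352, limma), and −0.18 without LXRDKO replicate 1. Fbxl21, a ubiquitin ligase subunit for CRY, had −0.47 (adjusted P = 0.426), and Gsk3b, a kinase of REV-ERBα, had −0.17 (adjusted P = 0.518).

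In a list of 19 liver genes known to cycle under the clock, none passed in limma and 3 passed in DESeq2, beside 0.321% and 3.59% of all genes. Unadjusted P values of limma were under 0.05 for 3 higher and 3 lower genes, beside 13.3% of all genes tested. Wee1, a kinase that holds back mitosis and a known E-box gene, had 1791 and 1982 normalized counts (WT) against 1276 and 1271 (LXRDKO). Both LXRDKO livers were lower and nearly equal (log2 fold change −0.56, 95% interval −0.82 to −0.31, adjusted P = 0.127 in limma and 0.00938 in DESeq2). Unlike that of Dbp or Nr1d1, its fold change was the same to 2 decimals (−0.56) without LXRDKO replicate 2.

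Cyp7a1, the rate-limiting enzyme of bile acid synthesis and a known LXR target in mice, had 17587 and 16798 normalized counts (WT) against 24854 and 29037 (LXRDKO). It was higher in both LXRDKO livers (log2 fold change 0.64, adjusted P = 0.127 in limma and 0.000494 in DESeq2). Tfrc, the transferrin receptor, had 736 and 1055 in WT and 1303 and 1917 in LXRDKO (log2 fold change 0.84, adjusted P = 0.254 in limma and 0.0284 in DESeq2). Over the whole list 13 genes were higher and 6 lower (median log2 fold change 0.16).

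By distance over the 4 livers in log2 values centred on their mean, the genes most like Arntl among 15577 others were Exoc4 (0.0346), Sez6l2 (0.0703) and AC105358.1 (0.0992), and 21 genes lay within 0.2. The genes most like Dbp were D530018E20Rik (0.0995), Atp6v0a4 (0.102) and Nr1d1 (0.104), and 39 lay within 0.2. Nr1d1 was thus the third nearest of all genes to Dbp. With 4 livers such likeness is a description of 4 values, and many genes share it.

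The RNA came from whole tissue, so fewer cells of a type and less RNA per cell cannot be told apart. The 8 hepatocyte markers were abundant in all livers and 4 of 8 were higher in LXRDKO, with summed levels of 7421400 and 8185900 normalized counts (WT) against 7740930 and 7165630 (LXRDKO). The 6 Kupffer cell markers were all lower, 3 of them past the threshold in limma (beside 0.321% of all genes), with sums of 7892 and 8907 in WT and 1262 and 715 in LXRDKO, and Timd4 was at 0 in LXRDKO replicate 2. Of the 6 sinusoidal endothelium markers 5 were lower (sums of 10344 and 9253 against 7849 and 6005). The 6 stellate cell markers were all higher (11043 and 11437 against 15600 and 17457), as were the 6 cholangiocyte markers (2084 and 3599 against 4572 and 5426). Of the 5 tested lymphocyte and neutrophil markers 4 were lower. The sums of all 6 listed were 461 and 766 in WT and 963 and 546 in LXRDKO. Ptprc, the tested marker that was higher, made up most of each sum (343 and 599 in WT, 890 and 493 in LXRDKO).

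LXRDKO replicate 2 had the lowest Kupffer and endothelial sums and the highest stellate and cholangiocyte sums. Its hepatocyte sum was also the lowest, but Alb made up most of that sum in every liver. Alb had 4940810 and 5959090 normalized counts (WT) against 5214020 and 4644570 (LXRDKO). Of the 8 hepatocyte markers, LXRDKO replicate 2 was the lowest for 2 and the highest for 2. It was also the liver with the lowest Nr1d1 and Dbp and the highest Arntl. Of 8 genes that answer to temperature and heat shock, 6 were lower (median log2 fold change −0.22), and Hsph1, a chaperone, had the smallest P value (log2 fold change −0.69, adjusted P = 0.316, limma). That of Hsph1 was −0.33 without WT replicate 1, and it passed without WT replicate 2 (−1.05, adjusted P = 0.0318). All 7 tested immediate early genes were higher (median 0.58), beside 7649 of all 15578 genes tested. The groups overlapped for 5 of the 7, beside 8613 of all genes, and none of the 7 passed in limma or DESeq2. Among these Egr1, with 551 and 431 normalized counts (WT) against 681 and 778 (LXRDKO), had the smallest P value (adjusted P = 0.253, limma). The part of cell composition or stress in the clock gene values was not tested.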

How the data were processed

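Polyadenylated liver RNA was sequenced as single-end reads of 50 bp from KAPA stranded libraries. Per the submitters' notes and methods, the authors checked reads with FastQC, aligned them to mm10 with STAR 2.6.0c and normalized with DESeq2. The counting tool, its strand setting and its annotation are not given in the sources used here. The deposited values are a signal, normalized counts per gene, each a read count divided by the size factor of its library (0.877 and 1.18 in WT, 1.05 and 0.933 in LXRDKO). All values (100%) were whole reads within 0.01 read, so reads were recovered.

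Log2(normalized count + 1) was tested with limma 3.58.1 (R 4.3.3), empirical Bayes moderation and a mean-variance trend, for genes whose mean reached 10 normalized counts, and P values were adjusted by Benjamini-Hochberg over all of them. This scale understates the fold change of low genes. On the recovered reads, edgeR 4.0.16 (quasi-likelihood) and DESeq2 1.42.0 served as alternatives. Other pseudocounts, filters, scalings and moderation, the replicate block and the omission of each liver were tried as well. The tests were also run on simulated counts with known changes and a single spread set for all genes. That run does not show how the tests behave at the spread of these livers. Replicate numbers do not pair the mice. Positions are from GENCODE M21 on GRCm38.

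The genes and lists were chosen with earlier results of these data known. Genes named are the 10 clock genes, Nr1h3 and Nr1h2, fixed partners (Hlf, Per3, Cry2, Nfil3, Ciart, Rora), genes of the loop, modifier and output lists that passed in limma or DESeq2 or else the 3 with the smallest P value, the 1 with the smallest P value of each of 3 further lists, and the 3 genes nearest to Arntl and Dbp. Genes that overlap a named gene or mark a cell type are named beside it. A gene of the loop and RRE lists is not reported here and was left out of their counts. Chromatin accessibility was not analysed here.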

Additional observations from a re-analysis of the deposited data

How the results depend on the processing

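None of the 9 tested clock genes, and none of the other loop factors and modifiers, passed the adjusted threshold in limma or in any of the 15 alternatives. Several alternatives called few genes of any kind, so this says little about stability. Unadjusted P values under 0.05 were found for 4 clock genes in limma and in DESeq2, for 3 in edgeR, for 0 in limma without the trend, for 1 without LXRDKO replicate 2 and for 0 without WT replicate 2. Fold changes of Arntl, Per1, Cry1, Nr1d1, Nr1d2, Dbp and Tef kept their sign in all 15. Signs turned for Clock (−0.0575 to 0.363 when each liver was left out, below 0 without WT replicate 2 or LXRDKO replicate 2), Per2 (−0.141 to 0.0277), Hlf (−0.389 to 0.0314) and Cry2 (−0.136 to 0.0426, and 0.00763 under total scaling). The 50 genes called by limma became 25 with a mean of at least 50, 1 without the trend and 567 with DESeq2, and from 2 to 262 when a liver was left out (2 without LXRDKO replicate 1, 8 without LXRDKO replicate 2, 157 without WT replicate 2 and 262 without WT replicate 1). The cause was not tested. With 1 liver left in a group, that liver was assumed to vary like the others. Rhythmic outputs called numbered 0 in limma and 3 in DESeq2. With the replicate block limma called 90 genes, 1 of them a rhythmic output and 0 of them clock genes. The correlation of the replicate deviations between genotypes was 0.0031, and the mice are numbered separately, so the numbers do not pair the livers. The largest shift of the median over all genes was 0.05 under total scaling. Of the clock genes, Npas2 was left untested in the main limma fit for low counts, with 3 to 11 reads per liver. It entered the test without the filter and without WT replicate 2.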
